A study of Mus musculus with 32 samples.

Results

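Heavy and light polysomes of NIH 3T3 cells kept without serum were compared, clone by clone, in 4 of the 16 samples of a study of translation in mouse fibroblasts. NIH 3T3 is an established mouse fibroblast line. The 4 samples were chosen by their titles, 2 of the heavy and 2 of the light fraction, and make up 8 of the 32 deposited columns. The cells had been without serum for 16 h, a time that the series' design text places before cytochrome c leaves the mitochondria. Light stands for gradient fractions 4 to 6 and heavy for fractions 7 to 10. Each sample was hybridised together with a common reference, unfractionated poly(A) RNA from NIH 3T3 cells grown in full medium, to an array of the NIH 15k mouse cDNA collection. The other 12 samples, used below for comparison only, are the same fractions of NIH 3T3 cells in complete medium (basal) and of 4E cells, NIH 3T3 cells that ectopically overexpress eIF4E, basal or starved. The labels do not say whether 4E is 1 clone, or whether both samples of a fraction were cultured separately, and the p-values rest on a spread that can be technical.

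Ribosomes on an mRNA add to its mass, so a sucrose gradient sorts transcripts by how many ribosomes they carry. Transcripts that are translated efficiently, or have long coding regions, lie in heavy fractions, and those with few ribosomes lie in light ones. Serum supplies growth factors that keep initiation active, in part through eIF4E, the protein that binds the mRNA cap. When serum is withdrawn, initiation in fibroblasts slows, and mRNAs of the translation machinery are known for leaving polysomes. The arrays bear on the placement of each transcript relative to the others, not on the total amount of polysomes.

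The values are log ratios of a sample and the reference, taken as log2 and centred on the sample's median. Whether they are sample over reference or the reverse is not given in the sources used here. Every difference below is therefore heavy minus light as coded, and a positive sign does not say that the transcript was more or less abundant in heavy polysomes. The deposited table names clones and not genes, and 0 of the clone IDs matched an entry of the mouse RefSeq gene table (GRCm38.p6). No gene, pathway, cell type marker, promoter or protein can therefore be given, and the 15169 clones measured in all 16 samples are described by ID. In each comparison at most 2 positive and 2 negative clones are named by a rule of size and p, apart from 2 clones that are said to be named after their values were seen.

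In starved NIH 3T3 cells the heavy and light fractions were close for most clones and apart for a minority. The quartiles of the differences were -0.29 and 0.37, with a median of 0.03, and 52.5% were positive. Centring each sample on its median holds the middle of the differences near 0, so nothing is read from the median or the share of positive clones. A difference above 1 log2 unit was found for 903 clones and one below -1 for 604. Beyond 2 units stood 33 positive and 11 negative clones, and the extremes were 3.11 and -2.73. Both heavy samples lay above both light samples for 3432 clones (22.6% of those tested) and below both for 2882 (19%). Together these were 41.6% of clones. With 2 interchangeable samples against 2 and no difference, a share of 0.333 would show no overlap in either direction. The SD of the differences over clones was 0.59, against 0.63 in NIH 3T3 basal, 0.61 in 4E basal and 0.66 in 4E starved cells. A clone's level in heavy and in light samples went together, with r = 0.65 across clones. The difference had r = 0.03 with the mean log ratio over both fractions. Such an r is near 0 wherever heavy and light values have a similar spread, so nothing is read from it.

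**Figure D1:**
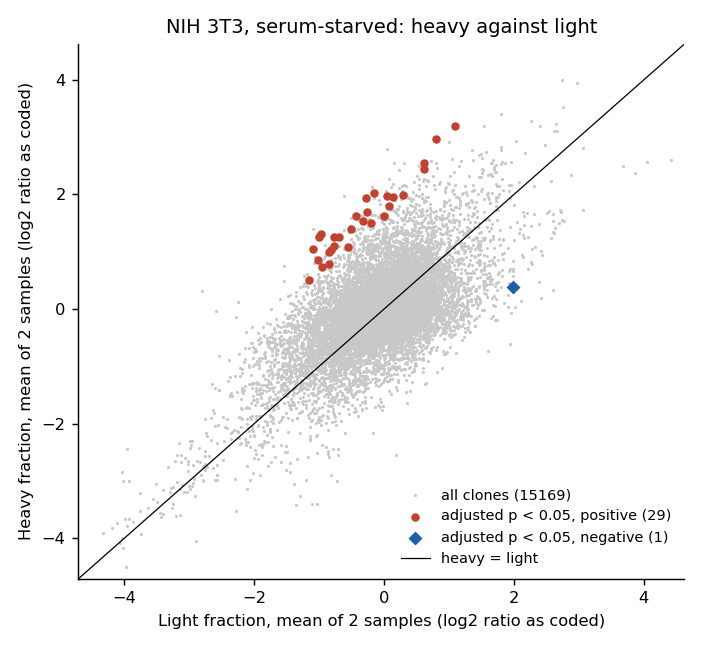
Mean log2 ratio as coded of the 2 heavy samples (vertical axis) against that of the 2 light samples (horizontal axis) for the 15169 clones in starved NIH 3T3 cells, with heavy equal to light as a line. The 29 positive clones with adjusted p under 0.05 (red) lie above the line, and the 1 negative clone (blue) lies below it. Other clones lie further from the line: of the 33 with a difference above 2, 24 did not pass.

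In the fit of all 8 groups, 30 clones (0.198% of those tested) passed at an adjusted p under 0.05, 29 of them positive (0.191%) and 1 negative (0.00659%) (limma, Benjamini-Hochberg over all clones). The positive differences ran from 1.62 to 2.29, with a median of 1.87 and standard errors close to the 0.34 of the middle clone. In all 30 the heavy and light samples did not overlap, as in 41.6% of all clones. The count lies on the threshold. All 30 clones had the same adjusted p of 0.0486, the next clone had 0.0514, and 220 clones (168 positive, 52 negative) lay under 0.1.

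Clone H3059E05 had the largest difference among those that passed. Its heavy samples stood at 1.29 and 1.35 and its light samples at -0.91 and -1.04, a difference of 2.29 (SE 0.37, adjusted p = 0.0486 by limma). Both heavy samples were above 0 and both light samples below it, and the gaps within a fraction were small beside that between the fractions. Clone H3025C05 stood at 1.24 and 1.25 in the heavy samples and at -0.82 and -1.19 in the light samples. Its difference was 2.26 (SE 0.37, adjusted p = 0.0486 by limma), again with no overlap.

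The only negative clone that passed, H3123A01, stood at 0.47 and 0.28 in the heavy samples and at 1.84 and 2.13 in the light samples. The difference was -1.61 (SE 0.29, adjusted p = 0.0486 by limma). The next negative clone by p, H3118C06, stood at -0.95 and -1.03 in the heavy and at 0.45 and 0.50 in the light samples. Its samples did not overlap either, but the difference of -1.47 (SE 0.29) did not pass (adjusted p = 0.0649 by limma).

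All 29 positive clones had both heavy samples above the sample median, at 0.33 to 3.67. Their light samples lay between -1.29 and 1.23, and 17 clones had both light samples below the median, 6 had both above it and 6 had 1 on each side. By the mean of each fraction, 35.3% of all clones lay above the median in both fractions and 15.7% in heavy alone. A large positive difference favours high heavy and low light values, so these counts describe the choice. The 2 samples of a fraction were closer for these clones than for others. The median gap was 0.20 between the heavy and 0.30 between the light samples, against 0.37 and 0.41 over all clones. Small gaps favour a clone in this test, so they describe the choice and are no separate result. Of the 44 clones with a difference beyond 2 units in either direction, 35 did not pass, and the median standard error of the 44 was 0.60.

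**Figure D2:**
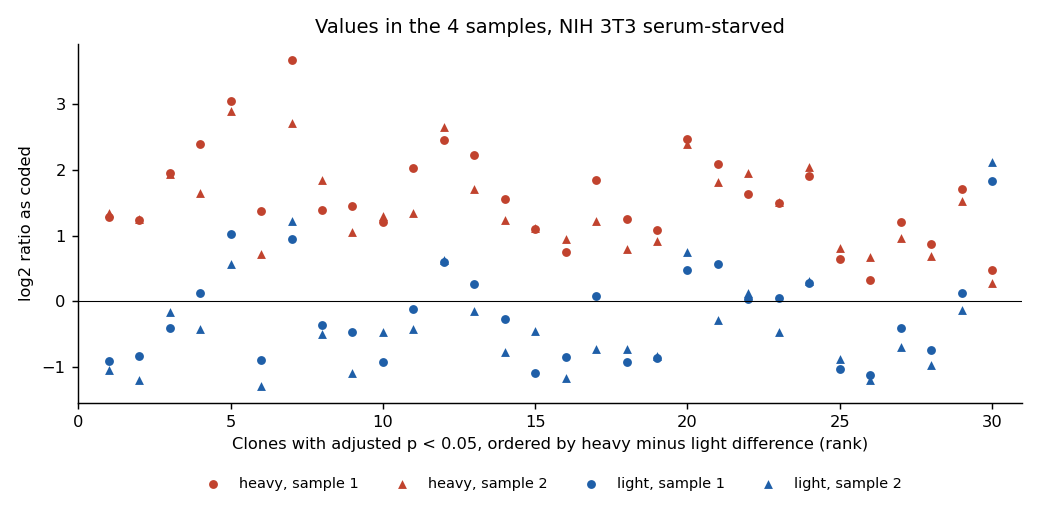
Log2 ratio as coded in each of the 4 samples of starved NIH 3T3 cells (heavy in red, light in blue, sample 1 as circles, sample 2 as triangles) for the 30 clones with adjusted p under 0.05, ordered by their heavy minus light difference. In each clone the heavy and light samples do not overlap, and at rank 30 alone the light samples, at 1.84 and 2.13, are the upper ones.

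The 30 calls depended on all 4 samples. Without the 1st heavy sample no clone passed by limma (1587 at an unadjusted p under 0.05). Without the 2nd heavy sample 63 clones passed (59 positive, 4 negative), of which 6 were among the 30. Without the 1st light sample 9 passed (3 positive, 6 negative), none of them among the 30. Without the 2nd light sample 24 passed (10 positive, 14 negative), 2 of them among the 30. The excess of positive over negative calls thus turned when either light sample was left out. The sign was steadier than the call: in each of the 21 alternative settings run for this comparison, every one of the 30 that was tested kept its sign and an unadjusted p under 0.05. All of these settings use samples that gave the calls.

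How well the 2 replicates of the difference went together depended on which samples were set against each other. The difference of the 1st heavy and 1st light sample correlated across clones with that of the 2nd heavy and 2nd light sample at r = 0.41 (rho = 0.40). These pairs share no sample. With the 1st heavy set against the 2nd light sample and the reverse, r was 0.06 (rho = 0.09). Across clones, the 1st light sample correlated more with the 1st heavy sample (r = 0.68) than with the 2nd light sample (r = 0.62). The 2nd heavy sample did not follow its number: its r was 0.47 with the 2nd light sample, 0.52 with the 1st light sample and 0.67 with the 1st heavy sample. The 1st light sample also had the widest spread of the 4, with a median absolute deviation of 0.68 against 0.52 to 0.58. The labels do not say what a shared number stands for.

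A second property of the table moved with this agreement. The mean of 2 deposited columns gave a sample's value, and at every clone 1 column of the pair was at or above the other in all 16 samples. In the 4 samples here 11.3 to 22.2% of clones held the same value in both columns (tolerance 1e-06). The 8152 clones with unequal columns in all 4 samples had r = 0.59 between the replicate differences of the same number and 0.17 between the crossed ones. The 7017 clones with equal columns in at least 1 sample had r = 0.16 and -0.10. Of the 30 clones that passed, 25 (83.3%) were of the first kind, as were 53.7% of all clones. What an equal pair of columns stands for is not given in the labels.

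**Figure D3:**
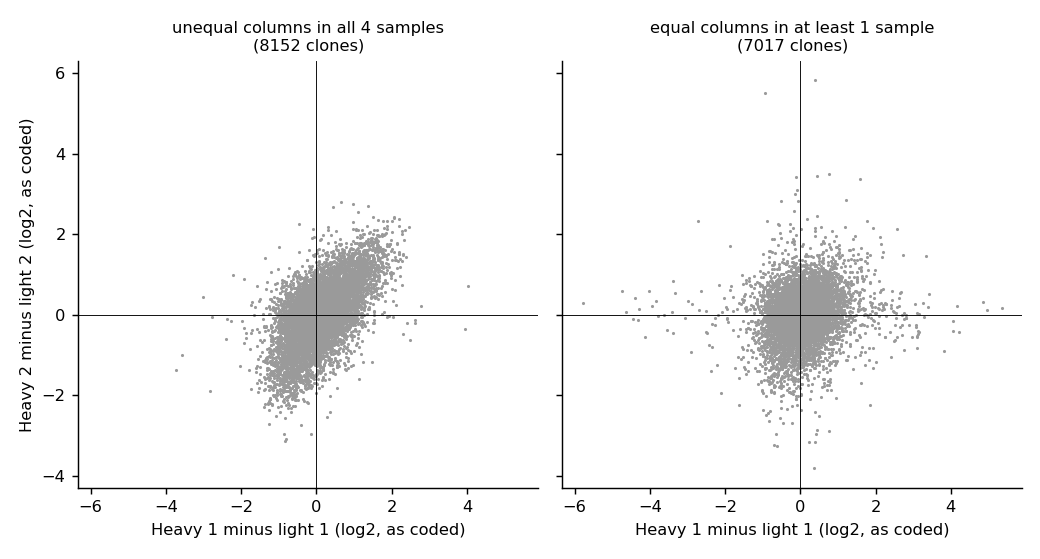
Heavy 1 minus light 1 (horizontal axis, log2 as coded) against heavy 2 minus light 2 (vertical axis) in starved NIH 3T3 cells, for the 8152 clones with unequal columns in all 4 samples (left) and the 7017 clones with equal columns in at least 1 (right). The left cloud is tilted (r = 0.59), while in the right one (r = 0.16) many clones far out in one replicate lie near 0 in the other.

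The largest single differences were often seen in 1 pair of samples only. The 100 clones with the highest difference in the 1st pair of samples had a median of 2.54 there and of 0.17 in the 2nd pair, where 61 of the 100 were positive, against 52.0% of all clones. Of these 100 clones, 72 had equal columns in at least 1 sample, as did 46.3% of all clones. The 100 highest of the 2nd pair had a median of 2.13 there and of 1.16 in the 1st pair, where 79 were positive, against 53.2% of all clones, and 38 of them had equal columns.

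Restricted to the 8152 clones with unequal columns, the same fit gave 114 clones (1.4% of those tested), 91 positive and 23 negative. They held all 25 of the 30 clones that were tested again, 24 positive and 1 negative. Clone H3118C06 passed there with its difference of -1.47 (adjusted p = 0.0413 by limma), and its unadjusted p was 0.00018 by limma in both fits. The samples and values were those of the first fit, with fewer clones to adjust for. That these clones passed is therefore no separate support. The 91 positive clones had a median difference of 1.69 (1.31 to 2.31) and the 23 negative clones one of -1.65 (-2.56 to -1.36). Negative clones made up 23 of 114 calls in this fit and 1 of 30 in the fit of all clones. These calls reach unlike depths of the ranking by p. At an adjusted p under 0.1 by limma, the fit of all clones held 52 negative among 220 clones. Nothing is therefore read from the contrast of the shares.

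The other 3 states share no polysome sample with starved NIH 3T3 cells, only the reference RNA. Across all clones the heavy minus light difference of starved NIH 3T3 cells correlated at r = 0.52 with that of NIH 3T3 basal, 0.52 with that of 4E basal and 0.49 with that of 4E starved cells. Among the clones with unequal columns these were 0.65, 0.66 and 0.62, and among the others 0.29, 0.27 and 0.25. These r describe clones, which are no replicates of one another, and carry no p.

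Clones with large differences in starved NIH 3T3 cells mostly had the same sign elsewhere, with smaller values. The 903 clones above 1 unit had a median of 1.27 there, and medians of 0.90 in NIH 3T3 basal, 0.84 in 4E basal and 0.89 in 4E starved cells. Of the 903, 699 (77.4%) were positive in all 3 other states, against 23.9% of all clones. The 604 clones below -1 had a median of -1.21, and medians of -0.86, -0.87 and -0.82 in the same order. Of these, 456 (75.5%) were negative in all 3, against 22.9% of all clones. A smaller value outside the state in which clones were chosen is what the choice alone would give. Differences above 1 unit in all 4 states were found for 187 clones and below -1 in all 4 for 98.

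**Figure D4:**
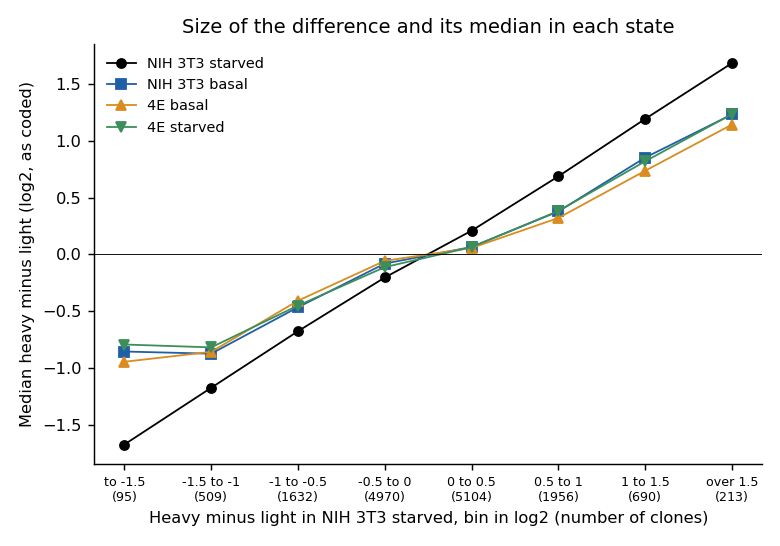
Median heavy minus light difference (log2 as coded) in each of the 4 states, for clones binned by their difference in starved NIH 3T3 cells, with the number of clones in brackets. The other 3 states rise with the bins above 0 to medians between 1.14 and 1.23 in the top bin of 213 clones, and on the negative side level off between -0.79 and -0.94 in the lowest bin of 95.

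Of the 29 positive clones that passed, 28 were positive in all 3 other states, as were 23.9% of all clones. A value over 1 in all 3 was found for 18 of the 29, against 1.61% of all clones. Their median difference was 1.58 in NIH 3T3 basal, 1.30 in 4E basal and 1.63 in 4E starved cells. In the same fit, 12 of the 29 passed in NIH 3T3 basal (0.303% of all clones passed with a positive sign), 17 in 4E starved (0.672%) and 0 in 4E basal (0%), where 27 were positive at an unadjusted p under 0.05 (6.21%). The fit gives a clone the same standard error in every state, and the clones that passed had small ones (median 0.34, against 0.39 over all clones), so nothing is read from these counts. Clone H3059E05 had differences of 1.96 in NIH 3T3 basal, 2.07 in 4E basal and 2.46 in 4E starved cells. Clone H3025C05 had 2.08, 1.81 and 2.45 in the same order. For both, starved NIH 3T3 cells lay within the range of the other states. In the fit of clones with unequal columns, 85 of the 91 positive and 21 of the 23 negative clones had their sign in all 3 other states too, against 28.8% and 24.6% of the clones tested there.

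Among the 29, 3 clones differed in placement from the rest, and 2 of them, H3047E11 and H3106H02, are named here after their values were seen. Clone H3051C03 had a difference of 2.23 in starved NIH 3T3 and of 1.76 in 4E basal cells, but of -0.11 in NIH 3T3 basal and 0.41 in 4E starved cells. Clone H3047E11 had 2.17 and 2.14 in the first pair of states and 0.12 and 0.37 in the second. Clone H3106H02 had 1.66 and 1.30 in the first pair and 0.17 and 0.09 in the second. These 3 were under 0.5 in both NIH 3T3 basal and 4E starved cells, a limit set after the data were seen, and the other 26 were not. The lowest value of the 26 in any other state was 0.38. The control rows of the table, a buffer and an Arabidopsis spot, are empty in the 8 samples of starved NIH 3T3 and 4E basal cells and filled in the other 8. The limit picks clones by this same split of the states, so that the 3 clones followed it describes the choice. A contrast over the split is given below. The part of the control rows in their values was not tested apart from cell line and serum. Over all clones, 354 were above 1 in both states with empty control rows, and 29 of these were under 0.5 in both of the others.

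**Figure D5:**
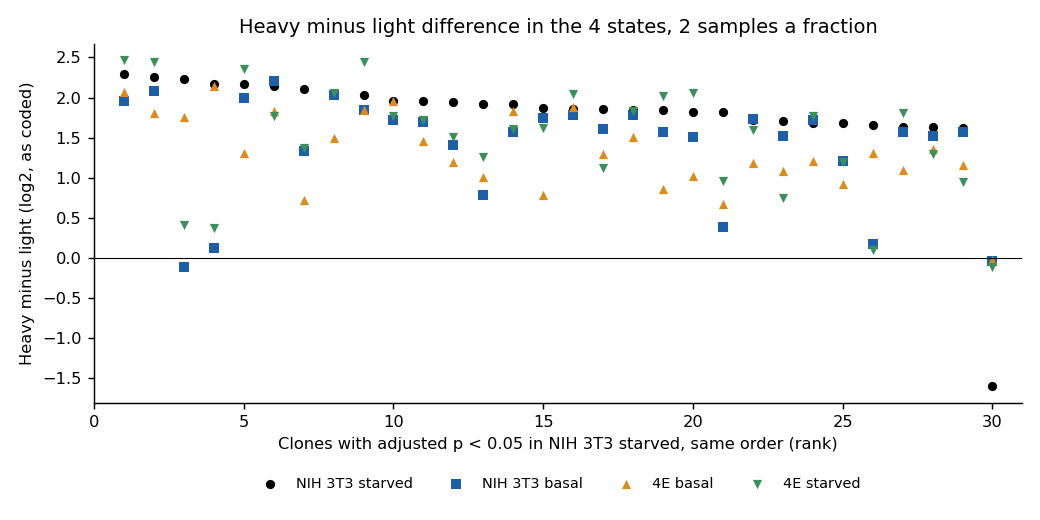
Heavy minus light difference (log2 as coded, vertical axis) in the 4 states of cell line and serum for the 30 clones that passed in starved NIH 3T3 cells, in the order of their difference there. At ranks 3, 4 and 26 both NIH 3T3 basal and 4E starved lie under 0.5, and at rank 30 the 3 other states lie between -0.12 and -0.03.

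The negative clone H3123A01 stood apart in the other way. Its difference of -1.61 had values of -0.04 in NIH 3T3 basal, -0.03 in 4E basal and -0.12 in 4E starved cells beside it. The 2 light samples of starved NIH 3T3 cells, at 1.84 and 2.13, were the high ones. Its other 14 samples lay between -0.18 and 0.47, the 2 heavy samples of starved cells included. Tests of the difference between states gave -1.56 (SE 0.41) against NIH 3T3 basal and -1.48 (SE 0.41) against 4E starved cells, and neither passed (adjusted p = 1 and 0.983 by limma). In contrast, H3118C06 had -0.90, -1.12 and -0.95 in the other 3 states.

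Whether the fraction difference itself changed with serum was tested as starved minus basal NIH 3T3 cells. No clone passed by limma (525 at an unadjusted p under 0.05, 3.46% of those tested), and the lowest adjusted p was 0.499. The clone nearest on the positive side, H3051C03, differed by 2.34 (SE 0.45, adjusted p = 0.971 by limma). Clone H3110D04 differed by 2.05 (SE 0.45), with 1.49 in starved and -0.56 in basal cells. On the negative side, clone H3076B11 differed by -3.40 (SE 0.58, adjusted p = 0.499 by limma). Its heavy basal samples stood at 4.03 and 2.68, while all 4 starved samples lay between -0.30 and 0.41. Both of these heavy basal samples held the same value in both columns. Clone H3038A01 differed by -2.28 (SE 0.53), with -0.37 in starved and 1.91 in basal cells. All 4 clones named for this contrast had equal columns in at least 1 of its samples. The median 95% half-width of such a difference was 1.19 log2 units before adjustment. Each contrast of starved with basal cells of 1 line also crosses the division by control rows, and serum and that division cannot be told apart in it. Without the 2nd heavy basal sample 27 clones passed, 26 of them negative.

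The comparison with starved 4E cells gave 0 clones as well by limma (669 at an unadjusted p under 0.05, 4.41%). Clone H3009C04 came nearest, with a difference of 3.69 (SE 0.53, adjusted p = 0.08 by limma). Most of this lay in the 4E cells, whose heavy samples stood at -2.99 and -3.47, while the heavy samples of starved NIH 3T3 cells stood at 1.26 and 0.56 and the light ones at 0.31 and 0.66. Of these, -2.99 was the mean of columns at -5.77 and -0.20 and 1.26 that of columns at -0.59 and 3.13 (before centring). The other 3 samples of starved NIH 3T3 cells held the same value in both columns. With the higher column of each pair alone the difference was 2.67 (SE 0.97, adjusted p = 1.00 by limma), and with the lower column 4.71 (adjusted p = 0.0612). Clone H3111B07 differed by 3.03 (SE 0.61), with 1.43 in NIH 3T3 and -1.61 in 4E cells. Clone H3108B01 differed by -2.13 (SE 0.49) and clone H3142G10 by -1.97 (SE 0.42), the latter with -0.01 in NIH 3T3 and 1.96 in 4E cells. Without the 2nd heavy sample of starved NIH 3T3 cells 10 clones passed, and H3009C04 was then at 4.04 (adjusted p = 0.0228 by limma). In this contrast too the lines lie on different sides of the division by control rows.

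The contrast between the sides of the division, added after the data were seen, is also the cell line by serum term of heavy minus light, and these cannot be told apart. Heavy minus light in the 2 states with empty control rows, minus that in the 2 with filled rows, gave 0 clones by limma (841 at an unadjusted p under 0.05, 5.54%). Clone H3110C07 differed by 2.16 (SE 0.33, adjusted p = 0.16 by limma) and H3051C03 by 1.84 (SE 0.32, adjusted p = 0.184 by limma). H3110C07 had 0.98 in starved NIH 3T3 and 1.13 in 4E basal cells, and -0.99 in NIH 3T3 basal and -1.23 in 4E starved cells. On the other side, H3018F03 differed by -1.80 (SE 0.34) and H3031D09 by -1.59 (SE 0.31), with 0.02 and -0.34, and 0.31 and 0.10, in the first pair of states. In the second pair H3018F03 had 1.73 and 1.55, and H3031D09 had 1.84 and 1.76.

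The clone IDs hold a plate number, a row and a column, and the differences were uneven over these positions. Plate medians of the heavy minus light difference ran from -0.17 (plate 68) to 0.30 (plate 23), and the 159 plates took 3.91% of its sum of squares over clones. Columns took 0.762% and rows 0.0154%. Some share falls to 159 groups without any plate effect, and its size was not computed. The median difference was 0.13 on plates 1 to 60 and -0.03 on plates 61 to 159. Of the 29 positive clones that passed, 19 came from plates 1 to 60, which hold 37.8% of all clones, and 24 from columns 1 to 6, which hold about as many clones as columns 7 to 12. Plate 13 held 4 of the 30 and no other plate more than 1. Over a wider set the column pattern was weaker: of the 300 clones with the largest positive differences 53.3% lay in columns 1 to 6, while 51% lay on plates 1 to 60. Of the 300 with the most negative differences 25.3% lay on plates 1 to 60. The plate pattern was also present elsewhere, with 42.7 to 50% of the top 300 clones of the other 3 states on plates 1 to 60. Centred on plate and column medians, a setting added after the data were seen, the fit gave 5 clones, all among the 29. The part of position in the calls was not tested further, and how plates relate to print blocks on the array is not given in the sources used here.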

How the data were processed

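The authors deposited log ratios of each polysome sample and a common reference, from competitive 2-colour hybridisation per the series' design text, treated here as log2. No source used here gives the base of the log, the centring, the direction, the scanner, the background correction or any spot filter. The largest absolute values are too large for log10, but a natural log is possible. The columns of these samples had medians between -0.12 and 0.15, and none ran against another (lowest r = 0.41). Title numbers 1 and 2, and 3 and 4, were averaged into 1 sample each. Of 15247 clones, 78 with a missing value in any of the 16 samples were left out, and each sample was centred on its median. Differences were tested with limma 3.58.1 (R 4.3.3) in 1 fit of 8 group means (8 residual degrees of freedom, prior 6.51), with Benjamini-Hochberg adjustment over clones and a threshold of 0.05. The fit was run on simulated data with independent normal noise, which does not cover samples that are correlated by number. With 2 samples against 2, an exact permutation test of a single clone cannot go below p = 0.333. Named clones are, per comparison and sign, the 2 with the largest difference among those that passed, or else those with the smallest p. The planned gene lists and cell type markers could not be used, as clones are not paired with genes. The comparison, the pairing of columns and the naming rule were chosen with earlier results of these data known. The number of arrays limits the precision.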

Additional observations from a re-analysis of the deposited data

Results flagged for a closer look

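For 5 clones named above, both heavy minus light differences of samples of the same number had one sign in starved NIH 3T3 cells and the opposite sign in another state. Each was picked among 15169 clones for a small p of a difference between states, and none passed a test of it. For H3110D04 the mean was 1.49 in starved and -0.56 in basal NIH 3T3 cells (adjusted p = 1 by limma). For H3038A01 it was -0.37 and 1.91 (adjusted p = 1 by limma), and its 1st heavy basal sample was the mean of columns at 0.39 and 2.81. For H3111B07 it was 1.43 in starved NIH 3T3 and -1.61 in starved 4E cells (adjusted p = 0.983 by limma), and -0.71 in NIH 3T3 basal cells (adjusted p = 1 by limma). Some of the single differences behind these signs were small. H3038A01 stood at 0.04 (heavy) and 0.08 (light) in its 2nd starved NIH 3T3 samples. H3111B07 stood at 0.09 (heavy) and 0.21 (light) in its 1st NIH 3T3 basal samples. For H3108B01 the mean was -1.36 in starved NIH 3T3 and 0.78 in starved 4E cells (adjusted p = 0.983 by limma). For H3110C07 it was 0.98 in starved NIH 3T3, -0.99 in NIH 3T3 basal and -1.23 in starved 4E cells (adjusted p = 1 and 0.983 by limma).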

How the results depend on the processing

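The count of 30 clones for heavy minus light in starved NIH 3T3 cells became 0 with only the 4 samples fitted (1856 at an unadjusted p under 0.05), with only the 8 samples with empty control rows, with quantile normalization, with no centring, with the lower column alone, with array weights and with the replicate block. It was 1 with the higher column alone, 4 with scaling to 1 median absolute deviation, 5 with plate and column centring, 114 with unequal columns only and 3114 with each column as a replicate, which counts paired columns as independent. A trended and robust prior gave 29. Leaving out 1 sample gave 0 to 63. Serum by fraction gave 1 clone with quantile normalization, 438 with each column as a replicate and 0 to 27 with 1 sample left out. Cell line by fraction gave 1 with quantile normalization, 1 with the trended prior, 714 with each column and 0 to 10 with 1 sample left out. The contrast of the control-row division gave 1018 with each column and 0 to 5 with 1 sample left out. The correlation of the replicate differences, 0.41, was 0.35 with the lower column, 0.59 with unequal columns and 0.063 when crossed. Deviations of samples with the same number correlated at 0.36 in starved NIH 3T3 and 0.21 in 4E basal cells. They correlated at 0.01 in 4E starved and -0.33 in NIH 3T3 basal cells. Whether the numbers pair the samples was not tested. The replicate block, apart from the 0 above, gave 529 (385 positive, 144 negative) with the 4 samples alone (1 residual degree of freedom), 0 with the 8 samples with empty control rows and 0 together with plate and column centring. With the numbers of NIH 3T3 basal crossed in the block, serum by fraction gave 0. No named difference changed sign in 370 recomputed values. The named clones were chosen for size or a small p and every setting reuses their samples, so nothing is read from this. The 2 samples a group, the open direction of the ratio and the lack of gene names limit every result here.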
